A study of Caenorhabditis elegans with 24 samples.

Results

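The genes described here encode the aminoacyl-tRNA synthetases of Caenorhabditis elegans, the enzymes that join each amino acid to its transfer RNA. The members were found by their symbol: a letter for the amino acid, the letters ars, and the number 1 or 2. The rule gave 32 genes of the 17118 genes that at least 1 probe set names alone. By the naming convention 20 of them carry the number 1, taken here as cytosolic, and 12 carry the number 2, taken as mitochondrial. Where a gene had several probe sets, the brightest on average stood for it. A gene was tested if its log2 intensity was above 4 on at least 3 arrays, and 31 of the 32 members were among the 12277 genes tested.

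The study hybridised total RNA of wild type N2 worms, the standard laboratory strain, to 24 Affymetrix C. elegans Genome Arrays. All worms were grown at 20 degrees C on RNAi plates and collected at day 4 of adulthood. The 6 groups were worms on Cel-TOR RNAi fasted for 48 h (3 arrays) or fed (3 arrays), worms on Cel-Rheb RNAi fasted for 48 h (4 arrays) or fed (4 arrays), and worms on control RNAi fasted for 48 h (5 arrays) or fed (5 arrays). The arrays of a group are labelled as biological replicates, and no label gives the number of worms behind an array. The RNA came from whole worms, so fewer cells of a type and less RNA per cell cannot be told apart.

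Synthetases set the supply of charged transfer RNA for the ribosome. The cytosolic enzymes serve the translation of nuclear genes, and the mitochondrial enzymes, also encoded in the nucleus, serve the few proteins made inside the mitochondrion. TOR is a kinase that promotes translation and growth when amino acids are plentiful, and Rheb is the small GTPase that activates it. In mammals and yeast the cytosolic leucyl-tRNA synthetase is also known as a leucine sensor upstream of TOR.

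The number in a symbol did not settle the compartment of every member. In the worm aars-2 is known as the cytosolic alanine enzyme, so the numbers of the alanine pair run against the rule. The compartment of vars-1, a valyl-tRNA synthetase, was not settled from the sources used here, and a separate valine enzyme gene, glp-4, has no ars symbol. The RefSeq annotation lists cars-2 as a pseudogene and places it beside cars-1, the cysteine gene. Lysine and glycine have 1 gene each, kars-1 and gars-1, and in animals these single genes are known to serve both compartments. Under the rule histidine, threonine, asparagine, glutamine and tryptophan also gave 1 gene each: hars-1, tars-1, nars-1, qars-1 and wars-1. They are counted as cytosolic in both groupings, and whether any of them serves both compartments was not settled here. With aars-1 and aars-2 exchanged and vars-1 and cars-2 left out there were 18 tested cytosolic and 11 mitochondrial genes, and the counts of that grouping, chosen after the values were seen, stand beside those of the naming convention as the revised grouping. The tryptophan gene wars-1 was the member that failed the filter, with group means between 2.89 and 3.43. No sequence of these genes is shown.

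The targeted genes were read first. let-363, the worm TOR gene, was lower on TOR RNAi than on control RNAi in fasted worms (log2 change -1.44 ± 0.14, adjusted p = 1.2e-07) and in fed worms (-1.45 ± 0.14, adjusted p = 9.7e-08). rheb-1 has 2 probe sets, and they disagreed. The dimmer one was lower on Rheb RNAi in fasted worms (-1.85 ± 0.29, adjusted p = 5.4e-05 over all probe sets) and in fed worms (-2.55 ± 0.29, adjusted p = 8.5e-07), while the brighter one, which stands for the gene here, was not called in fasted (-0.50 ± 0.24, adjusted p = 0.14) or fed worms (-0.30 ± 0.24, adjusted p = 0.35). Errors on changes are standard errors of the limma fit, and "called" means a Benjamini-Hochberg adjusted p under 0.05 over all tested genes. Overlap of groups and the direction in same-number pairs are given below as descriptions of single genes. Their shares over all tested genes were not computed, so they add no support to a call. The median ratio of 3′ to middle control probe sets, a sign of RNA quality, was higher by 0.37 in fasted and 0.50 in fed worms on Rheb RNAi than on control RNAi (log2), and by 0.13 and 0.20 on TOR RNAi. It moved by at most 0.12 in size with fasting within an RNAi.

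Tissue markers moved as well, and their counts are to be read against the shares of all tested genes called. Against control RNAi these were 19.2% higher and 13.9% lower on Rheb RNAi in fed worms, and 19.9% and 13.4% on TOR RNAi. In fasted worms they were 10.5% and 9.04% on Rheb RNAi, and 14.9% and 10.2% on TOR RNAi. Fasting lowered 7.91% of all tested genes on control RNAi, 8.67% on Rheb RNAi and 5.16% on TOR RNAi. In fed worms 17 of 20 muscle markers were called higher on Rheb RNAi (summed intensity 74988 to 101272, against 39492 to 50968 on control RNAi) and 4 of 20 on TOR RNAi (44340 to 68476). The muscle share on TOR RNAi was near that of all tested genes called higher. Of 20 neuron markers, 12 were called higher and none lower in fed worms on either knockdown (summed intensity 13034 to 14216 on TOR RNAi and 11392 to 13869 on Rheb RNAi, against 7477 to 9308 on control RNAi). In fasted worms 7 of them were higher on TOR RNAi (13343 to 15057) and 6 on Rheb RNAi (10840 to 14721, against 8158 to 10949 on control RNAi). Of 17 oocyte and eggshell markers, 12 were called lower on Rheb RNAi and 14 on TOR RNAi in fed worms (98765 to 128357 on TOR RNAi and 137029 to 164950 on Rheb RNAi, against 160799 to 205086 on control RNAi). Of 22 germline markers, 10 were called lower on Rheb RNAi and 12 on TOR RNAi in fed worms. In fasted worms 15 of 17 oocyte and eggshell markers were lower on TOR RNAi (100147 to 120467, against 139653 to 192257), and 4 of 17 on Rheb RNAi. Fasting lowered 7 of 16 intestinal markers on control RNAi (20243 to 34881 in fasted worms, against 48112 to 62286 in fed worms), 10 of 16 on Rheb RNAi and 9 of 16 on TOR RNAi. GCRMA values are always above 0, so no marker could be listed at 0. The part of these tissue and quality measures in the synthetase results was not tested.

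Across the 7 comparisons of a pair of groups, 19 of the 31 tested members were called at least once, 12 cytosolic and 7 mitochondrial, and 12 were called in none. Single comparisons called between 6.24% and 33.3% of all tested genes. The share of all tested genes called at least once was not computed, so the count of 19 is not a result about the members. Nearly all changes were small: 34 of the 35 calls were under 2-fold, and the largest change was 1.05 on the log2 scale. The leucine gene lars-1 and the serine gene sars-1 were called most often, in 4 comparisons each, always upwards. dars-1, hars-1 and iars-1, the cytosolic aspartate, histidine and isoleucine genes, were called in 3 each, also upwards.

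**Figure D1:**
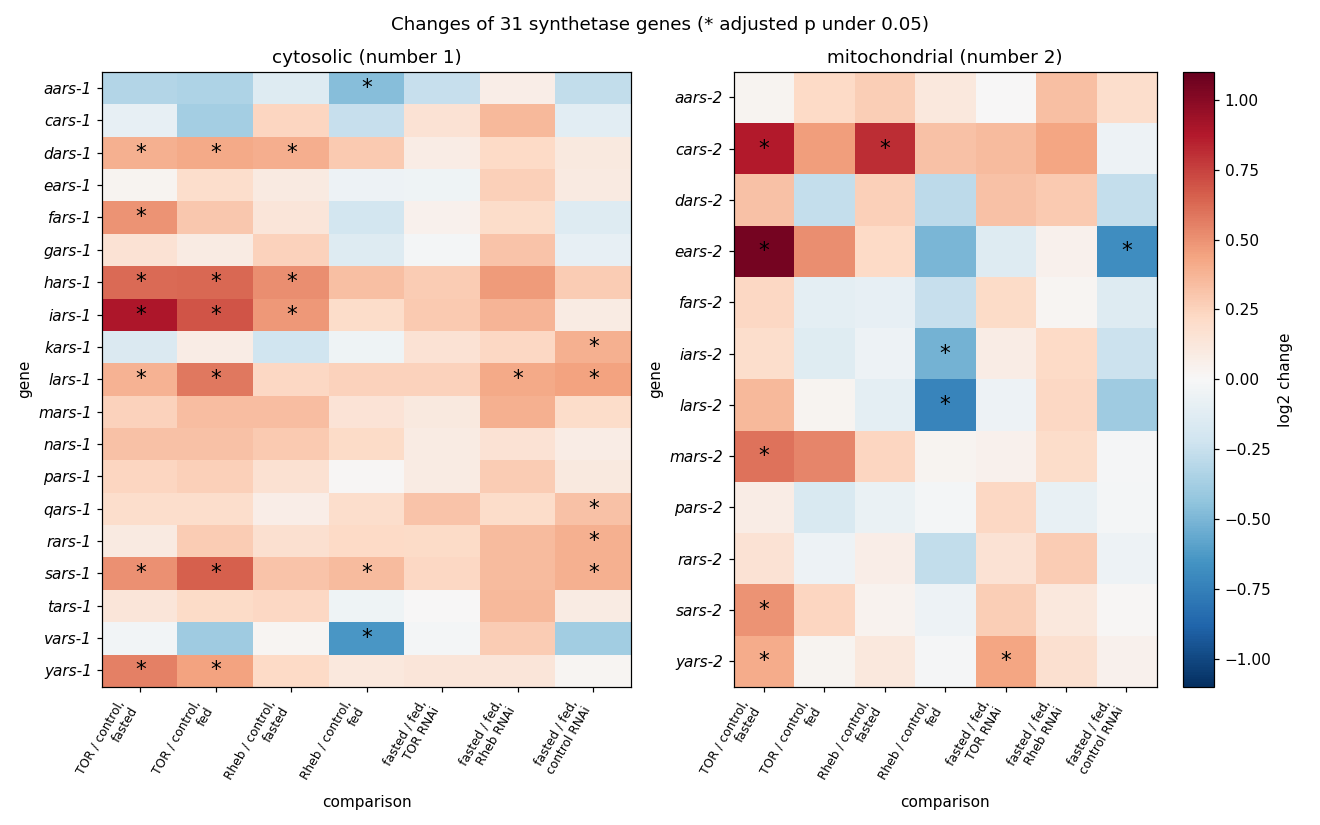
Log2 changes of the 31 tested synthetase genes (rows) in 7 comparisons (columns), with cytosolic genes on the left and mitochondrial genes on the right; red is higher and blue lower in the first-named group, and a star marks an adjusted p under 0.05. The stars of the cytosolic genes gather in the TOR RNAi columns and the fasting column of control RNAi, and mitochondrial genes carry 5 of the 12 stars in the column of fasted worms on TOR RNAi.

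On each array the members' median difference from their mean in fed control worms was taken over the cytosolic and over the mitochondrial genes. The cytosolic median averaged 0.45 ± 0.08 in fasted and 0.31 ± 0.03 in fed worms on TOR RNAi (SD, n = 3 each). It averaged 0.36 ± 0.14 in fasted and 0.08 ± 0.27 in fed worms on Rheb RNAi (SD, n = 4 each), and 0.12 ± 0.07 in fasted and -0.01 ± 0.07 in fed worms on control RNAi (SD, n = 5 each). Every array on TOR RNAi and every fasted array on Rheb RNAi lay above all 10 control RNAi arrays, while the fed Rheb RNAi arrays spread from -0.26 to 0.39. In the revised grouping this separation was not complete. Fasted control replicate 5 stood at 0.30 there, beside 0.29 on fasted Rheb replicate 3 and 0.30 on fed TOR replicate 1.

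The mitochondrial median followed another order. It averaged 0.21 ± 0.13 in fasted and 0.04 ± 0.11 in fed worms on TOR RNAi, -0.01 ± 0.09 in fasted and -0.22 ± 0.15 in fed worms on Rheb RNAi, and -0.15 ± 0.24 in fasted and -0.01 ± 0.22 in fed worms on control RNAi. On either knockdown the fasted mean stood above the fed mean, and on control RNAi it stood below, within a spread of the control arrays that covers both. The difference of the cytosolic and mitochondrial medians lay at about 0 in fed control worms by construction, since their mean is the reference (0.00 ± 0.21, SD, n = 5). In the other groups it averaged 0.24 to 0.37, all read against those same fed control arrays. In the revised grouping the difference averaged 0.34 to 0.55 in those groups. The revised mitochondrial median averaged 0.11 ± 0.19 in fasted and -0.06 ± 0.12 in fed worms on TOR RNAi. It averaged -0.11 ± 0.14 and -0.27 ± 0.18 on Rheb RNAi, and -0.16 ± 0.25 and 0.00 ± 0.23 on control RNAi. These medians are descriptions and carry no test.

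**Figure D2:**
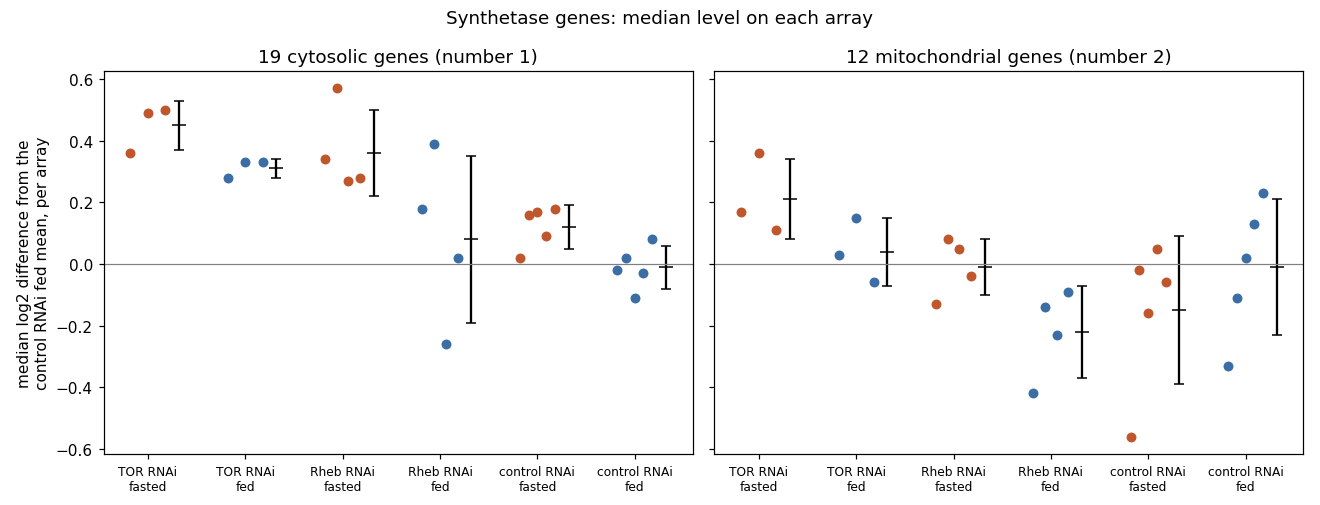
Median log2 difference from the fed control mean over 19 cytosolic genes (left) and 12 mitochondrial genes (right), 1 point per array, with bars for the group mean ± SD; fasted arrays are orange and fed arrays blue. Cytosolic medians on TOR RNAi lie between 0.28 and 0.50, above all control RNAi arrays, while mitochondrial medians of control RNAi arrays span -0.56 to 0.23.

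The first question is what a fast of 48 h did to the synthetase genes of worms on control RNAi. Of 19 cytosolic genes 5 rose and none fell, and of 12 mitochondrial genes none rose and 1 fell. Over all tested genes 11% were called higher and 7.91% lower. The median change was 0.10 for the cytosolic genes, -0.06 for the mitochondrial genes and 0.04 for all tested genes. In the revised grouping 5 of 18 cytosolic genes rose (median 0.11) and 1 of 11 mitochondrial genes fell (median -0.14).

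lars-1, the cytosolic leucine enzyme, had log2 intensities of 10.27, 10.26, 10.38, 10.29 and 10.53 in fasted worms, against 9.96, 9.80, 9.79, 9.87 and 10.09 in fed worms. Every fasted array lay above every fed array, and lars-1 rose by 0.44 ± 0.12 (adjusted p = 0.013). rars-1, the cytosolic arginine enzyme, read 10.47, 10.56, 10.53, 10.24 and 10.55 in fasted worms, against 9.99 to 10.14 on the 5 arrays of fed worms. Its groups did not overlap either, and it rose by 0.39 ± 0.11 (adjusted p = 0.012). qars-1, the cytosolic glutamine enzyme, read 9.98, 10.07, 9.98, 10.05 and 10.18 in fasted worms, against 9.78, 9.53, 9.62, 9.80 and 9.94 in fed worms. It too had no overlap and rose by 0.32 ± 0.10 (adjusted p = 0.022).

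sars-1 and kars-1, the serine and lysine enzymes, rose by 0.39 ± 0.12 (adjusted p = 0.025) and 0.39 ± 0.13 (adjusted p = 0.04), with overlap between fasted and fed arrays. In all 5 pairs of arrays with the same replicate number each of these 5 genes was higher in the fasted array. The call of kars-1 was lost on leaving out any 1 of 8 arrays and that of sars-1 on leaving out fed replicate 1 or 3 or fasted replicate 5. qars-1 lost its call without fed replicate 2 or 3 or fasted replicate 5. The lars-1 call held under every alternative that measured it. With arrays centred on their medians 1 cytosolic call was left. Without probe sets of the suffixes _s_at and _x_at 1 was left as well, but lars-1, rars-1, qars-1 and kars-1 have no other probe set that names them alone and were not measured there. The remaining 14 cytosolic genes ranged from -0.38 for vars-1 to 0.28 for hars-1.

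ears-2, the mitochondrial glutamate enzyme, had log2 intensities of 5.09, 5.31, 5.49, 5.70 and 5.96 in fasted worms, against 5.51, 5.85, 6.32, 6.59 and 6.67 in fed worms. The groups overlapped, yet the fasted array was lower in all 5 same-number pairs, by 0.42 to 0.89. ears-2 fell to 62.5% of its fed level (log2 change -0.68 ± 0.20, adjusted p = 0.021), and the call was lost without fed replicate 3, 4 or 5 or fasted replicate 1 (change between -0.85 and -0.56). The other 11 mitochondrial genes ranged from -0.39 for lars-2 to 0.19 for aars-2. The cytosolic glutamate gene ears-1 changed by 0.10, and the mitochondrial partners of the raised genes changed by -0.39 for lars-2, -0.06 for rars-2 and 0.01 for sars-2, none of them called.

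Same-numbered arrays of the control and Rheb groups deviated together, and so did the TOR arrays among themselves. A fit with the replicate number as a block, the TOR numbers kept apart, is therefore given where it changes a call. It called 38.3% of all tested genes with fasting on control RNAi, and a smaller share of the members. It added hars-1 (0.28, adjusted p = 0.029) to the cytosolic genes that rose, and dars-2, the mitochondrial aspartate gene (-0.26, adjusted p = 0.022), and vars-1 (-0.38, adjusted p = 0.038) to those that fell. Both were lower in the fasted array of all 5 pairs. In the blocked fit 2 of 12 mitochondrial genes and 1 of 19 cytosolic genes fell.

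With Rheb RNAi, fasting called 1 cytosolic gene higher and no mitochondrial gene, where 3.23% of all tested genes were called higher and 8.67% lower. The share of the members called higher was near that background. lars-1 read 10.46, 10.87, 10.62 and 10.36 in fasted worms, against 9.92 to 10.44 on the 4 arrays of fed worms. It rose by 0.42 ± 0.14 (adjusted p = 0.047), higher in the fasted array of all 4 pairs, but this narrow call was lost on leaving out any of 17 of the 24 arrays. Although few were called, 19 of 19 cytosolic changes and 11 of 12 mitochondrial changes were above 0, with medians of 0.28 and 0.21. All tested genes had a median of 0.09, and 61.7% of them were above 0. In the revised grouping the medians were 0.32 for 18 cytosolic and 0.18 for 11 mitochondrial genes, with 18 and 10 changes above 0.

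The blocked fit called 31.1% of all tested genes, in either direction, with fasting on Rheb RNAi. It called 9 of the 31 tested members, all of them higher. The share of all tested genes called higher in that fit was not computed, so the count is not a result about the members. The blocked fit called 7 cytosolic genes higher, lars-1 with hars-1 (0.47, adjusted p = 0.004), mars-1 (0.39, adjusted p = 0.0035), sars-1 (0.35, adjusted p = 0.005), rars-1 (0.35, adjusted p = 0.0082), cars-1 (0.36, adjusted p = 0.017) and tars-1 (0.36, adjusted p = 0.042), the histidine, methionine, serine, arginine, cysteine and threonine enzymes. Of the mitochondrial genes it called cars-2 (0.43, adjusted p = 0.0066) and dars-2 (0.29, adjusted p = 0.029) higher. In that fit dars-2 rose with fasting on Rheb RNAi and fell on control RNAi.

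With TOR RNAi, fasting called no cytosolic gene and 1 mitochondrial gene higher, against 1.08% of all tested genes higher and 5.16% lower. yars-2, the mitochondrial tyrosine enzyme, read 5.94, 5.85 and 5.75 in fasted worms, against 5.39, 5.42 and 5.45 in fed worms. The groups did not overlap, and yars-2 rose by 0.43 ± 0.12 (adjusted p = 0.029), a call lost without any 1 of 5 of the 6 TOR arrays. Its cytosolic partner yars-1 changed by 0.13. Among the uncalled genes the cytosolic changes ranged from -0.25 for aars-1 to 0.31 for qars-1 and the mitochondrial changes from -0.14 for ears-2 to 0.35 for cars-2. The medians were 0.11 for cytosolic, 0.18 for mitochondrial and 0.08 for all tested genes, and 0.12 and 0.16 for the cytosolic and mitochondrial genes of the revised grouping. Without fasted replicate 2 the cytosolic median stood above the mitochondrial one by 0.11, against 0.08 below it with all arrays (a difference of -0.08).

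**Figure D3:**
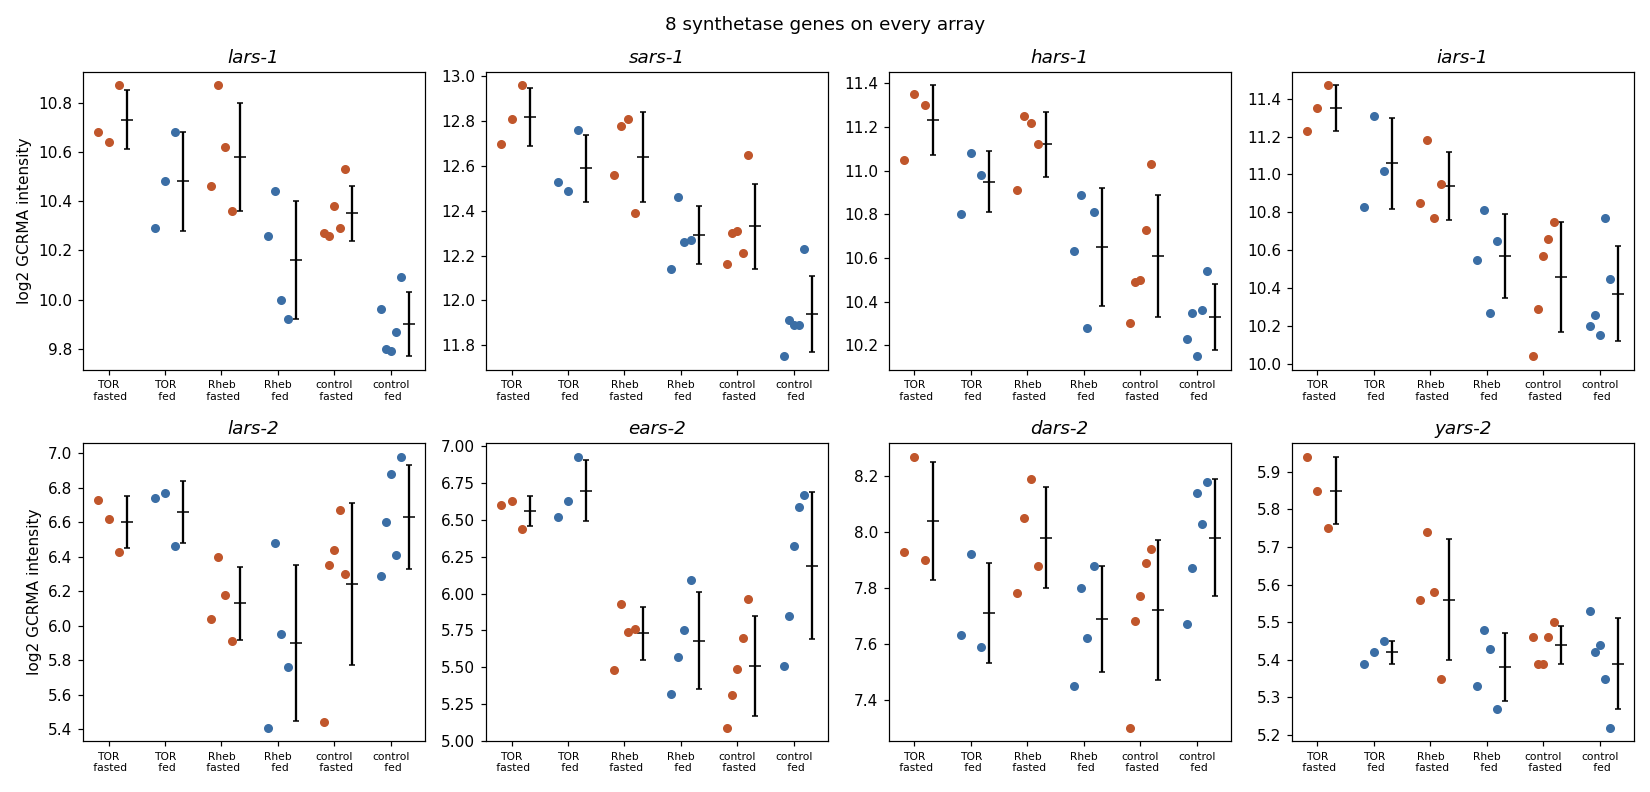
Log2 intensity of 8 synthetase genes on all 24 arrays, by group, with bars for the group mean ± SD; each panel has its own vertical scale, so levels cannot be compared between genes. Fasted arrays (orange) of lars-1 lie above fed arrays (blue) on control RNAi, iars-1 and hars-1 stand higher on TOR RNAi than on control RNAi, and ears-2 is low on Rheb RNAi and fasted control arrays.

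Whether the fasting response depended on the knockdown was tested as an interaction. Without the block no member was called in any of the 3 differences of responses, where 4.89%, 2.44% and 0.318% of all tested genes were called for Rheb minus control, TOR minus control and TOR minus Rheb. At an unadjusted p under 0.05 there were 3, 2 and 0 members. For Rheb minus control the smallest p belonged to dars-2 (0.55 ± 0.21, adjusted p = 0.17), vars-1 (0.66 ± 0.27, adjusted p = 0.19) and ears-2 (0.72 ± 0.30, adjusted p = 0.21). For TOR minus control they were yars-2 (0.38 ± 0.15, adjusted p = 0.27), dars-2 (0.58 ± 0.23, adjusted p = 0.27) and ears-2 (0.54 ± 0.33, adjusted p = 0.62). For TOR minus Rheb they were yars-2 (0.25), gars-1 (-0.33) and tars-1 (-0.36), each with an adjusted p of 1.

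In the blocked fit 17.5% of all tested genes had a response that differed between Rheb and control RNAi. The share of the members was near that, so their count is not a result about the members. The direction over all tested genes was not counted. The 6 called members all had the more positive response on Rheb RNAi. They were the mitochondrial dars-2 (0.55, adjusted p = 0.0071), ears-2 (0.72, adjusted p = 0.009), cars-2 (0.49, adjusted p = 0.026) and iars-2 (0.46, adjusted p = 0.038), and cars-1 (0.48, adjusted p = 0.027) and vars-1 (0.66, adjusted p = 0.038). Between TOR and control RNAi dars-2 was called (0.58, adjusted p = 0.013), with 9.11% of all tested genes. dars-2 read 7.93, 8.27 and 7.90 in fasted and 7.63, 7.92 and 7.59 in fed worms on TOR RNAi, and 7.78, 8.05, 8.19 and 7.88 in fasted and 7.45, 7.80, 7.62 and 7.88 in fed worms on Rheb RNAi. On control RNAi it read 7.30, 7.68, 7.77, 7.89 and 7.94 in fasted and 7.67, 7.87, 8.14, 8.03 and 8.18 in fed worms. Its fasted array was lower in 5 of 5 control pairs, higher in 3 of 3 TOR pairs, and in no Rheb pair lower.

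In fed worms TOR RNAi raised 6 of 19 cytosolic genes and lowered none, and no mitochondrial gene was called. Over all tested genes 19.9% were called higher and 13.4% lower. The share of all 31 members called higher was near that background, so their count is not a result about the members. The median was 0.28 for the cytosolic genes, 0.03 for the mitochondrial genes and 0.04 for all tested genes. In the revised grouping 6 of 18 cytosolic genes rose (median 0.29), and the median of the 11 mitochondrial genes was -0.06. With arrays centred on their medians, which moved the median of all tested genes to -0.16, 4 members were called higher and 3 lower. The comparisons of either knockdown with control RNAi share the control arrays.

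iars-1, the isoleucine enzyme, read 10.83, 11.31 and 11.02 on TOR RNAi, against 10.20, 10.26, 10.15, 10.77 and 10.45 on control RNAi. sars-1 read 12.53, 12.49 and 12.76, against 11.75, 11.91, 11.89, 11.89 and 12.23. hars-1 read 10.80, 11.08 and 10.98, against 10.23, 10.35, 10.15, 10.36 and 10.54. In each of these genes the fed TOR RNAi arrays all lay above the fed control arrays. iars-1 rose by 0.69 ± 0.17 (adjusted p = 0.0044), sars-1 by 0.66 ± 0.14 (adjusted p = 0.001) and hars-1 by 0.63 ± 0.16 (adjusted p = 0.0047). lars-1 read 10.29, 10.48 and 10.68 on TOR RNAi and rose by 0.58 ± 0.14 (adjusted p = 0.0033) over its fed control values. These 4 calls held under every alternative that measured them.

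yars-1 (0.44 ± 0.15, adjusted p = 0.025) and dars-1 (0.42 ± 0.13, adjusted p = 0.015), the tyrosine and aspartate enzymes, also rose without overlap, and both lost the call without fed TOR replicate 3, yars-1 also without fed TOR replicate 1 or fed control replicate 5. Their mitochondrial partners changed by 0.03 for yars-2 and -0.26 for dars-2, those of the others by -0.13 for iars-2, 0.24 for sars-2 and 0.03 for lars-2, none called. The uncalled cytosolic genes ranged from -0.39 for vars-1 to 0.34 for mars-1, and the mitochondrial genes from -0.26 to 0.54 for mars-2.

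In fasted worms TOR RNAi called 12 of 31 members higher and none lower, 7 cytosolic and 5 mitochondrial, where 14.9% of all tested genes were called higher and 10.2% lower. The medians were 0.24 for cytosolic, 0.34 for mitochondrial and 0.03 for all tested genes, and all 12 mitochondrial changes were above 0. In the revised grouping 7 of 18 cytosolic genes (median 0.25) and 4 of 11 mitochondrial genes (median 0.32) rose, and 10 of the 11 mitochondrial changes were above 0, the lowest being -0.32 for aars-1. Without the _s_at and _x_at probe sets, which left 17 of the 31 members measured, 4 cytosolic and 3 mitochondrial genes were called higher. Leaving out fasted TOR replicate 2 or 3 reduced the calls to 4 cytosolic genes, and leaving out fasted TOR replicate 2, 3 or fasted control replicate 1 reduced them to 2 or 3 mitochondrial genes.

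ears-2 had log2 intensities of 6.60, 6.63 and 6.44 on TOR RNAi, against 5.09, 5.31, 5.49, 5.70 and 5.96 on control RNAi. The groups were apart, and ears-2 was 2.07-fold higher (log2 change 1.05 ± 0.23, adjusted p = 0.0025), the largest change of any member. iars-1 read 11.23, 11.35 and 11.47 on TOR RNAi, against 10.04, 10.29, 10.57, 10.66 and 10.75. It also had no overlap and rose 1.85-fold (0.89 ± 0.17, adjusted p = 9.0e-04). The ears-2 and iars-1 calls held under every alternative that measured them, as did those of hars-1 (0.62 ± 0.16, adjusted p = 0.0072) and yars-1 (0.55 ± 0.15, adjusted p = 0.0085).

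The other cytosolic genes that rose were sars-1 (0.50 ± 0.14, adjusted p = 0.012), fars-1 (0.49 ± 0.16, adjusted p = 0.03), which encodes a phenylalanine enzyme subunit, dars-1 (0.39 ± 0.13, adjusted p = 0.03) and lars-1 (0.38 ± 0.14, adjusted p = 0.049). The groups did not overlap in any of these 4 genes, a description of genes already called. The sars-1 call was lost without fasted TOR replicate 3, that of fars-1 without fasted TOR replicate 1 or 2 or fasted control replicate 1, that of dars-1 without fasted TOR replicate 2 or 3 or fasted control replicate 4, and that of lars-1 without any 1 of 15 arrays. The uncalled cytosolic genes ranged from -0.32 for aars-1 to 0.32 for nars-1, the asparagine enzyme, and the partners ears-1 and cars-1 changed by 0.03 and -0.09.

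Among the mitochondrial genes yars-2 read 5.94, 5.85 and 5.75 on TOR RNAi, against 5.46, 5.39, 5.39, 5.46 and 5.50 on control RNAi. It rose by 0.41 ± 0.11 (adjusted p = 0.0073) without overlap. sars-2 rose by 0.49 ± 0.16 (adjusted p = 0.025) with overlap. cars-2, the RefSeq pseudogene, read 6.04, 6.57 and 6.53 on TOR RNAi, against 4.88, 5.34, 5.40, 5.59 and 6.37, and rose by 0.87 ± 0.26 (adjusted p = 0.017) with overlap at 1 control array. Its neighbour cars-1 changed by -0.09 and was not called. cars-2 and sars-2 lost their calls without fasted TOR replicate 2 or 3, and sars-2 also without fasted control replicate 1.

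mars-2, the mitochondrial methionine enzyme, rose by 0.60 ± 0.22 (adjusted p = 0.046) on the probe set that stands for it. Its other 2 probe sets changed by 0.32 ± 0.19 and -0.04 ± 0.22, and with probe sets of the suffixes _s_at and _x_at left out mars-2 turned to -0.04. It neighbours yars-1 in the RefSeq annotation. Its call was also lost without any 1 of 14 arrays, so the direction of mars-2 is unsettled here. The uncalled mitochondrial genes ranged from 0.03 for aars-2 to 0.36 for lars-2.

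In fed worms on Rheb RNAi 1 of the 31 members rose, a cytosolic gene, and 4 fell, 2 cytosolic and 2 mitochondrial. Over all tested genes 19.2% were called higher and 13.9% lower, so the members' share of falls was near the background and their share of rises below it, and neither count is a result about the members. The medians were 0.12 for cytosolic, -0.16 for mitochondrial and 0.02 for all tested genes. In the revised grouping no cytosolic gene fell and 3 of 11 mitochondrial genes did, with a median of -0.27. With arrays centred on their medians no member rose and 7 fell, beside a median of -0.15 for all tested genes.

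lars-2, the mitochondrial leucine enzyme, read 5.41, 6.48, 5.95 and 5.76 on Rheb RNAi, against 6.29, 6.60, 6.88, 6.41 and 6.98 on control RNAi. It fell to 60.2% of the control level (-0.73 ± 0.22, adjusted p = 0.013), with overlap at 1 array, and lost the call without fed Rheb replicate 1. vars-1 read 7.34, 7.49, 7.01 and 6.79, against 7.51, 7.89, 7.85, 7.60 and 8.12. It fell by 0.64 ± 0.19 on the log2 scale (adjusted p = 0.012) without overlap. aars-1, the alanine gene counted as mitochondrial in the revised grouping, fell by 0.47 ± 0.14 (adjusted p = 0.012) without overlap, and iars-2, the mitochondrial isoleucine enzyme, by 0.52 ± 0.17 (adjusted p = 0.02). vars-1 and aars-1 lost the call without fed Rheb replicate 4, and iars-2 without fed Rheb replicate 1 or fed control replicate 4 or 5.

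sars-1 read 12.14, 12.46, 12.26 and 12.27 on Rheb RNAi, against 11.75, 11.91, 11.89, 11.89 and 12.23 on control RNAi, and was the gene that rose (0.35 ± 0.13, adjusted p = 0.039). It was higher in 4 of 4 same-number pairs, and the call was lost without any 1 of 7 arrays. The partners of the called genes were not called: lars-1 changed by 0.25, aars-2 by 0.12, iars-1 by 0.20 and sars-2 by -0.06. The uncalled cytosolic genes ranged from -0.25 for cars-1 to 0.33 for hars-1 and the mitochondrial genes from -0.50 for ears-2 to 0.32 for cars-2.

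The blocked fit called 52.8% of all tested genes here, and a smaller share of the members. It called 6 cytosolic genes higher. To sars-1 it added hars-1 (0.41, adjusted p = 0.004), dars-1 (0.31, adjusted p = 0.011), lars-1 (0.30, adjusted p = 0.027), rars-1 (0.24, adjusted p = 0.029) and qars-1 (0.23, adjusted p = 0.032). It called 4 mitochondrial genes lower, adding ears-2 (-0.39, adjusted p = 0.017) and dars-2 (-0.23, adjusted p = 0.041), and cars-2 higher (0.50, adjusted p = 7.5e-04). lars-2, iars-2, ears-2 and dars-2 were lower on Rheb RNAi in 4 of 4 same-number pairs, as were vars-1 and aars-1.

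In fasted worms Rheb RNAi called 3 cytosolic genes and 1 mitochondrial gene higher and none lower, where 10.5% of all tested genes were called higher and 9.04% lower. The share of the members called higher was near that background. The revised grouping had 3 of 18 cytosolic genes (median 0.23) and none of 11 mitochondrial genes called (median 0.04). hars-1 read 10.91, 11.25, 11.22 and 11.12 on Rheb RNAi, against 10.30, 10.49, 10.50, 10.73 and 11.03 on control RNAi, and rose by 0.51 ± 0.15 (adjusted p = 0.016) with overlap at 1 array. iars-1 read 10.85, 11.18, 10.77 and 10.95, against 10.04, 10.29, 10.57, 10.66 and 10.75, and rose by 0.48 ± 0.16 (adjusted p = 0.04) without overlap. dars-1 rose by 0.40 ± 0.12 (adjusted p = 0.018), also without overlap. cars-2 rose by 0.81 ± 0.23 (adjusted p = 0.018) with overlap, beside a change of 0.24 in cars-1.

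The partners iars-2 and dars-2 changed by -0.06 and 0.26 and were not called. dars-1 lost its call without fasted Rheb replicate 2 or fasted control replicate 4, hars-1 without fasted Rheb replicate 3, and iars-1 without any 1 of 6 arrays. The count of cytosolic calls was 1 without fasted Rheb replicate 2 and 5 without fasted control replicate 5, and cars-2 lost its call without fasted Rheb replicate 3 or 4 or fasted control replicate 1. The blocked fit called 41.3% of all tested genes, in either direction, and 11 of the 31 tested members, all of them higher. Its share of all tested genes called higher was not computed, so the count is not a result about the members. The blocked fit called 8 cytosolic genes higher, with sars-1 (0.39, adjusted p = 0.0012), mars-1 (0.36, adjusted p = 0.0026), nars-1 (0.26, adjusted p = 0.016), lars-1 (0.28, adjusted p = 0.047) and cars-1 (0.27, adjusted p = 0.047) as additions. It called 3 mitochondrial genes higher, with dars-2 (0.31, adjusted p = 0.012) and ears-2 (0.34, adjusted p = 0.043) beside cars-2.

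For 12 amino acids both a number 1 and a number 2 gene were measured. With fasting on control RNAi the number 1 gene changed upwards of its partner in 8 of 12, with a median difference of 0.27 between the 2 changes. The widest gaps were leucine, 0.44 for lars-1 and -0.39 for lars-2, and glutamate, 0.10 for ears-1 and -0.68 for ears-2. The alanine pair, whose numbers are reversed, ran the other way, -0.27 for aars-1 and 0.19 for aars-2. With that pair turned, the cytosolic gene was above its partner in 9 of 12. For fasting on TOR RNAi the number 1 gene was above in only 5 of 12 pairs (median difference -0.09), or 6 with the alanine pair turned. For fasting on Rheb RNAi it was above in 8 of 12 (0.16), or 9 with the alanine pair turned. In fed worms on Rheb RNAi the number 1 gene was above its partner in 10 of 12 pairs (median difference 0.27), or 11 with the alanine pair turned. In fed worms on TOR RNAi it was above in 8 of 12 pairs (0.41), or 9 with the alanine pair turned.

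In fasted worms on Rheb RNAi the number 1 gene was above its partner in 9 of 12 pairs (median difference 0.12), or 10 with the alanine pair turned. On TOR RNAi the number 1 gene was above its partner in 7 of 12 pairs with a median difference of 0.02, or 8 with the alanine pair turned. Leaving out the cysteine pair, whose cars-2 is the RefSeq pseudogene, left 11 pairs and changed none of these turned counts. There the serine genes changed alike, 0.50 for sars-1 and 0.49 for sars-2, as did the leucine genes, 0.38 for lars-1 and 0.36 for lars-2. The glutamate pair was reversed, 0.03 for ears-1 and 1.05 for ears-2. These differences between genes are descriptions without a test.

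**Figure D4:**
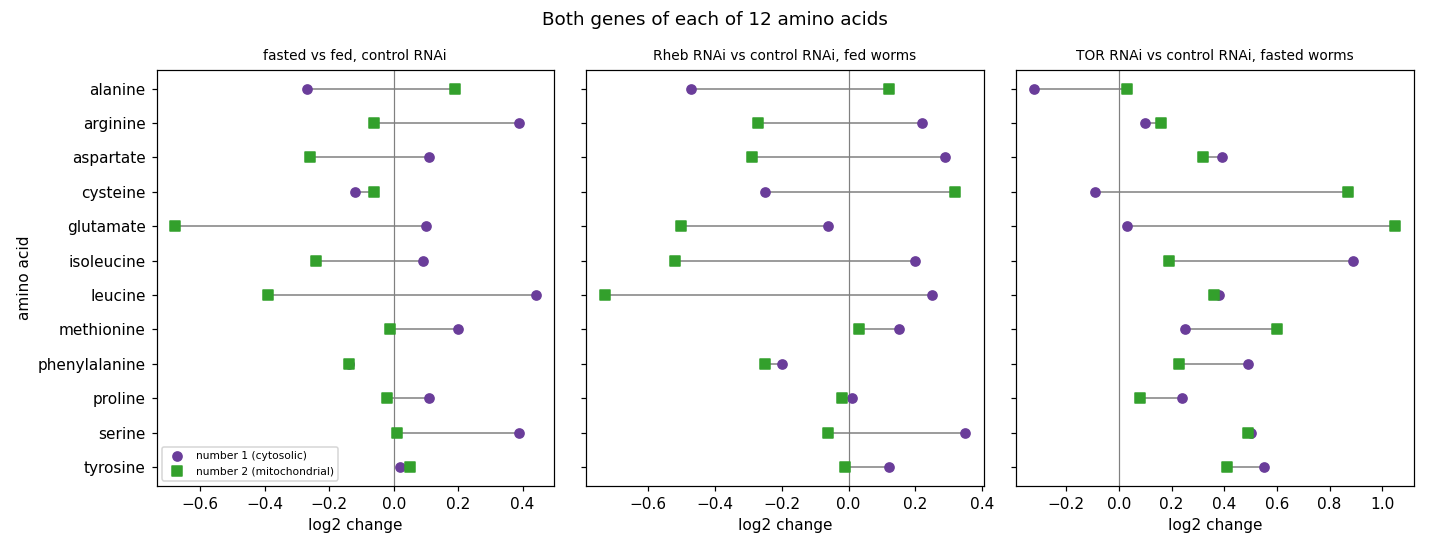
Log2 changes of both genes of 12 amino acids in 3 comparisons; purple circles are the number 1 genes and green squares the number 2 genes. The circle lies right of the square in 8 of 12 amino acids for fasting on control RNAi and in 10 of 12 for Rheb RNAi in fed worms (9 and 11 with the alanine pair, numbered the other way round, turned), and the glutamate square lies at -0.68 in the left panel and at 1.05 in the right panel.

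Other genes that handle transfer RNA were read beside the synthetases from lists, whose counts are to be read against the shares of all tested genes already given for each comparison. Of 20 genes for tRNA processing, modification and export, 8 rose and none fell on TOR RNAi in fasted worms. Among them were elpc-3 (0.72 ± 0.15, adjusted p = 0.0019) and elpc-1 (0.61 ± 0.18, adjusted p = 0.017), which encode subunits of the Elongator complex that modifies wobble uridines, and mtcu-1 (0.63 ± 0.13, adjusted p = 0.0017) and mttu-1 (0.74 ± 0.18, adjusted p = 0.0053), which act on mitochondrial tRNA. In fed worms on Rheb RNAi 1 rose, elpc-3 (0.51 ± 0.14, adjusted p = 0.0083), and 3 fell, with mtcu-2, another mitochondrial tRNA modifier, at -1.35 ± 0.20 (adjusted p = 3.3e-05). mtcu-2 also fell with fasting on control RNAi (-0.71 ± 0.19, adjusted p = 0.011), and its fasting response was higher by 1.15 ± 0.29 on Rheb RNAi (adjusted p = 0.019).

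The list of other synthetase genes held 3 tested genes: fars-3, the second phenylalanine subunit, secs-1, which acts in selenocysteine synthesis, and glp-4. On TOR RNAi in fasted worms fars-3 (0.57 ± 0.17, adjusted p = 0.017) and secs-1 (0.86 ± 0.19, adjusted p = 0.0027) rose. fars-3 rose by the same 0.57 in fed worms (adjusted p = 0.012), where its partner subunit fars-1 changed by 0.30 and was not called.

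The 57 mitochondrial ribosomal protein genes had 26 called higher and none lower on TOR RNAi in fasted worms (median 0.41) and 18 higher and 1 lower in fed worms (median 0.26). mrps-12 had the smallest p among them in fasted worms (1.06 ± 0.16, adjusted p = 4.8e-05). The 74 cytosolic ribosomal protein genes had 2 and 1 called higher in the same comparisons, with medians of 0.03 and -0.01. The cytosolic synthetase genes had medians of 0.24 and 0.28 there. Of 10 mitochondrial translation and gene expression factors none was called on TOR RNAi in fasted worms. In fed worms gfm-1, a mitochondrial elongation factor, fell by 0.66 ± 0.14 (adjusted p = 0.0011) and tufm-2 by 0.43 ± 0.16 (adjusted p = 0.043), and lonp-1, a mitochondrial protease on the same list, rose by 0.32 ± 0.12 (adjusted p = 0.047). On Rheb RNAi in fed worms gfm-1, tufm-2 and rpom-1, the mitochondrial RNA polymerase, fell.

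Of 11 genes listed as cytosolic elongation factors, 4 rose on TOR RNAi in fed worms, among them eef-1B.2 (0.38 ± 0.11, adjusted p = 0.0083) and eftu-2 (0.57 ± 0.12, adjusted p = 8.4e-04), which encodes a spliceosome GTPase related to elongation factors in sequence. Of 19 genes for amino acid sensing and the integrated stress response, atf-4, whose mammalian counterpart raises synthetase genes, rose in fed worms on Rheb RNAi (0.63 ± 0.16, adjusted p = 0.0051) and TOR RNAi (0.50 ± 0.18, adjusted p = 0.034). abcf-3, a partner of GCN-1, the activator of the tRNA-sensing kinase GCN-2, rose on TOR RNAi in fed worms (0.50 ± 0.12, adjusted p = 0.0033) and fasted worms (0.39 ± 0.12, adjusted p = 0.021). sesn-1, the worm sestrin, fell on Rheb RNAi in fed (-0.68 ± 0.23, adjusted p = 0.025) and fasted worms (-0.74 ± 0.23, adjusted p = 0.023). These are single called genes, and the counts of their list in the knockdown comparisons are not given here. A link of atf-4, abcf-3 or sesn-1 to the synthetase genes was not tested. With fasting on control RNAi 2 of the 19 rose, a share near the 11% of all tested genes. They were eif-2gamma, a subunit of the factor that carries initiator tRNA (0.47 ± 0.12, adjusted p = 0.0076), and aak-2, an AMP-activated kinase subunit (0.43 ± 0.12, adjusted p = 0.012).

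Of 13 mitochondrial stress response genes 2 rose and 1 fell with fasting on control RNAi. timm-23, a subunit of the mitochondrial protein import channel, rose by 0.62 ± 0.14 (adjusted p = 0.0031) and gpd-2, a glyceraldehyde-3-phosphate dehydrogenase, by 0.42 ± 0.12 (adjusted p = 0.015). atfs-1, the transcription factor of that response, fell (-0.73 ± 0.16, adjusted p = 0.0022), and its fasting response was higher by 1.03 ± 0.24 on Rheb RNAi (adjusted p = 0.01). In fasted worms atfs-1 was higher on TOR RNAi (0.85 ± 0.18, adjusted p = 0.0019) and Rheb RNAi (0.91 ± 0.17, adjusted p = 3.9e-04) than on control RNAi, as was the chaperone gene hsp-6 on TOR RNAi (0.55 ± 0.13, adjusted p = 0.0038) and Rheb RNAi (0.42 ± 0.12, adjusted p = 0.017). The counts of the mitochondrial stress list in the knockdown comparisons are not given here. Of 16 ER stress genes 4 rose with fasting on control RNAi, with crt-1, the calreticulin gene, at 0.75 ± 0.17 (adjusted p = 0.0025). Of 16 amino acid and peptide transporter genes 5 rose and 1 fell with fasting on control RNAi, and in fed worms 7 rose and 1 fell on Rheb RNAi and 5 rose and 1 fell on TOR RNAi.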

How the data were processed

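Total RNA, labelled from 5 ug, was hybridised to 24 arrays. Per the labels and the submitters' processing notes the authors deposited GCRMA values, made on the linear intensity scale; GeneSpring GX 7.3.1 is named in the design text, and no GCRMA version is given in the sources used here. The scanner files were not used here, so signal over background is unknown. log2 intensity was computed here from the deposited values. Of 22625 probe sets, 20766 name 1 gene, 887 several, 895 none and 77 are controls; only the first kind was used, with the brightest probe set per gene. A 6-group fit on all 24 arrays was made with limma 3.58.1 in R 4.3.3, for 10 comparisons, with Benjamini-Hochberg adjustment over 12277 genes in each. The script was tested on simulated data. The array number limits the precision.

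Same-numbered arrays correlated, after removal of group means, by 0.51 to 0.60 between fasted and fed control RNAi, 0.44 to 0.73 for Rheb RNAi, 0.50 to 0.57 for TOR RNAi and 0.18 to 0.66 between Rheb and control RNAi, with no such pattern between TOR RNAi and the others. The numbers, which come from the sample labels, therefore pair arrays except across TOR RNAi, and a block on them was a listed alternative.

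Members and lists were chosen with earlier results of these data known. Named are all called members with their partners of the other compartment, the 3 of smallest p where none was called, and up to 4 called genes per list. Alternatives were limma's prior, scaling, filters, probe set choice, samples fitted, the block, and leaving out each array. Probe sets shared by similar genes may read more than 1 gene.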

Additional observations from a re-analysis of the deposited data

Results flagged for a closer look

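A lone array far from the rest of its group was looked for among the called members, in 76 groups of 4 or 5 arrays with Dixon's ratio, and 4 were found; chance gives about 1 in 20. Fasted control replicate 4 read 11.11 for dars-1, below the others at 11.31 to 11.39. Fasted Rheb replicate 2 read 12.12 for kars-1, above 11.66 to 11.74. For mars-2 fed Rheb replicate 4 read 5.54, where the other 3 read 5.04, and fasted Rheb replicate 1 read 5.08, below 5.43 to 5.48. dars-1 lost its call on either knockdown in fasted worms without fasted control replicate 4.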

How the results depend on the processing

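Of the 35 member calls, 9 held under every alternative that measured the gene and 26 were lost under at least 1. Leaving out _s_at and _x_at probe sets removed 14 of the 31 members, which carry 16 of the calls, since no other probe set of theirs passed the filter, and the stricter filter removed aars-1, mars-2 and yars-2 with 4 calls, so counts under these settings are lower by construction. The only reversal among them was mars-2 on TOR RNAi in fasted worms, at -0.04 without _s_at and _x_at probe sets. Other causes were not tested. The replicate block fitted with TOR numbers apart could not give TOR against control RNAi, since TOR numbers and RNAi then coincide. Grouping by a reference product name was not run, as the tables used hold none. Levels near background limit aars-1, cars-2, mars-2, yars-2, ears-2 and lars-2, and the depth behind an intensity is not known. The group means of lars-2 lay between 5.90 and 6.66, and those of ears-2 between 5.51 and 6.70.

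With fasting on control RNAi the 5 cytosolic calls became 1 with arrays centred on their medians, 1 without _s_at and _x_at probe sets and 2 with only the groups compared, and leaving out 1 array gave 2 to 5. The mitochondrial fall numbered 0 with only the groups compared, 2 in the replicate block with TOR numbers apart, and 0 to 1 on leaving out 1 array. That block also called 1 cytosolic gene lower.

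With fasting on Rheb RNAi the 1 cytosolic call became 4 with an intensity trend, 4 with trend and robust prior and 5 with centring. It was 0 with quantile normalization, 2 with no filter and 4 with the stricter filter. Without _s_at and _x_at probe sets, where lars-1 was not measured, it was 0. The count was 3 with the mean of a gene's probe sets, 0 with only the groups compared and 0 without fed Rheb replicate 3 and fasted TOR replicate 2. That setting was meant to leave out arrays of high 3′ ratio, but it does not separate them. The median ratio was 1.85 on fed Rheb replicate 3 and 1.07 on fasted TOR replicate 2, while fasted Rheb replicate 3, at 1.53, was kept. The cytosolic calls became 5 in the replicate block with shared numbers and 7 with TOR numbers apart, which called 1 and 2 mitochondrial genes higher. Leaving out 1 array gave 0 to 5.

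With fasting on TOR RNAi the 1 mitochondrial call was 0 with a trend, with trend and robust prior and with only the groups compared. It was 0 with the stricter filter and without _s_at and _x_at probe sets, where yars-2 was not measured. Without fed Rheb replicate 3 and fasted TOR replicate 2 it was 0, and on leaving out 1 array 0 to 1. The cytosolic minus mitochondrial median was 0.11 without fed Rheb replicate 3 and fasted TOR replicate 2, and -0.15 to 0.11 on leaving out 1 array.

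For the response of Rheb minus control RNAi the replicate block called 3 mitochondrial genes with shared numbers and 4 with TOR numbers apart, which also called 2 cytosolic genes. For TOR minus control RNAi each block called 1 mitochondrial gene.

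In fed worms on Rheb RNAi the 1 cytosolic gene called higher became 2 with a trend, with trend and robust prior and with the stricter filter. It also became 2 without fed Rheb replicate 3 and fasted TOR replicate 2. It was 0 with centring, without _s_at and _x_at probe sets and with only the groups compared, 6 in either replicate block, and 0 to 2 on leaving out 1 array. The 2 called lower became 1 with the stricter filter and without _s_at and _x_at probe sets, 0 with the compartments revised, and 0 to 2 on leaving out 1 array. The 2 mitochondrial genes called lower became 5 with centring, 1 with only the groups compared, 4 in the block with TOR numbers apart, and 0 to 3 on leaving out 1 array. Without _s_at and _x_at probe sets the count was 0, but lars-2 and iars-2 were not measured there. Either block called 1 mitochondrial gene higher.

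In fed worms on TOR RNAi, where TOR and control numbers do not pair arrays, the replicate block with shared numbers called 10 cytosolic genes higher, 1 lower and 4 mitochondrial genes higher. Centring called 2 cytosolic genes and 1 mitochondrial gene lower, quantile normalization 1 cytosolic gene lower, and leaving out 1 array gave 0 to 2 mitochondrial genes higher. The cytosolic minus mitochondrial median was 0.44 without _s_at and _x_at probe sets. Centring moved the median of all genes from 0.04 to -0.16 on TOR RNAi and from 0.02 to -0.15 on Rheb RNAi in fed worms.

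In fasted worms on Rheb RNAi the 3 cytosolic calls became 5 with the mean of a gene's probe sets, 0 with only the groups compared, 5 and 8 in the replicate blocks, and 1 to 5 on leaving out 1 array. The 1 mitochondrial call became 0 with only the groups compared and with the compartments revised, 2 and 3 in the blocks, and 0 to 1 on leaving out 1 array. In fasted worms on TOR RNAi the 7 cytosolic calls became 4 with centring, without _s_at and _x_at probe sets and with only the groups compared. They were also 4 without fed Rheb replicate 3 and fasted TOR replicate 2. On leaving out 1 array they were 4 to 7, and 0 to 1 were called lower. The 5 mitochondrial calls became 3 with the stricter filter and without _s_at and _x_at probe sets. They were 2 with only the groups compared, 2 without fed Rheb replicate 3 and fasted TOR replicate 2, and 2 to 5 on leaving out 1 array. The cytosolic minus mitochondrial median was 0.21 without _s_at and _x_at probe sets, against -0.10.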
